A study of Mus musculus with 4 samples.

Results

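The genes described are 10 C-type lectin receptors of myeloid cells, Clec4a1, Clec4a2, Clec4a3, Clec4b1, Clec4d, Clec4e, Clec4n, Clec7a, Clec9a and Clec12a, taken by symbol from the 26033 features of the deposited UMI matrices. They were measured in sorted CD45+ leukocytes of the salivary glands, taken from mice at 20 days of age whose labels give the strain as C56BL/6. The groups were Csf2-/- mice, which lack both copies of the gene for the growth factor GM-CSF, and Csf2+/- mice, which keep 1 copy. Each genotype had 1 female and 1 male droplet library, each pooled from 2 mice, so every spread is over 2 pools and a p-value measures only the spread between pools. No Csf2+/+ group was analysed here, and all mice carried at least 1 null allele in every cell.

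C-type lectin receptors let myeloid cells recognise sugars and other structures on microbes and dead cells. Clec7a (Dectin-1, which binds fungal beta-glucan), Clec4n (Dectin-2, which binds mannans), Clec4e (Mincle, which binds mycobacterial glycolipid), Clec4d (its partner MCL) and Clec4b1 (DCAR) signal through the kinase Syk, which acts through the adaptor Card9. Clec4a2 (DCIR) and Clec12a (MICL) carry inhibitory motifs that recruit phosphatases, Clec4a1 and Clec4a3 are close relatives of Clec4a2, and Clec9a (DNGR-1) lets cross-presenting type 1 conventional dendritic cells sense exposed actin of dead cells.

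The libraries held between 111981802 and 122366588 UMIs, and 34674 cells remained after filtering, with 20 to 38 barcodes shared by any pair of libraries. Cells were clustered without any gene whose symbol starts with Clec and named from fixed markers, so a class called cDC1-like rests on genes such as Xcr1 and Wdfy4. In ILC2-like cells, the class with the highest Csf2, Csf2 stood at 6.60 and 5.79 CPM (a gene's UMIs scaled to the total of its class in a library) in the Csf2-/- libraries, against 124 and 139.9 CPM in the Csf2+/- libraries. All 4 libraries thus followed their labels. A cluster led by Retnla and Fn1 fitted no single class and is called the Retnla Fn1 cluster, and macrophage cluster 4, led by Il1a, Fat3 and Plau, was left unnamed although 11 of 12 macrophage markers reached 50 CPM in it. Macrophage cluster 6, led by Folr2, Lyve1 and F13a1, made up 1616 of the 3311 cells of the macrophage-like class. Each class is a set of summed single cells, so a level here is the average over its cells. Class boundaries moved with the clustering's random seed, and each call in a named class was repeated under 2 more seeds.

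All 10 genes lie on chromosome 6. In the RefSeq gene order (GRCm38.p6), Clec4a1, Clec4a3, Clec4b1, Clec4a2, Clec4n, Clec4d and Clec4e stand together with Clec4a4 and Clec4b2 among them, and Clec12a, Clec9a and Clec7a stand together further along with Clec12b, Clec1b and Clec1a. Of the 10 genes, 9 had a RefSeq promoter. The 250 bases before the start of the 4 genes whose values carry the results below are printed 5′ to 3′ on the gene's strand, with motif matches in capitals. Clec7a lies on the minus strand at chr6:129472780-129473029, and the others on the plus strand, Clec4a1 at chr6:122921598-122921847, Clec4a3 at chr6:122952265-122952514 and Clec4b1 at chr6:123049712-123049961 (all GRCm38.p6, which is not the build the counts were made on).
Clec7a: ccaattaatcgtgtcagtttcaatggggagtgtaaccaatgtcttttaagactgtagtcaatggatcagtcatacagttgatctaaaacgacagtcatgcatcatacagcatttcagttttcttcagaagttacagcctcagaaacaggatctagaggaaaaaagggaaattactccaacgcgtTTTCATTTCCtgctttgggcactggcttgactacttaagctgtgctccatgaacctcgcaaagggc
Clec4a1: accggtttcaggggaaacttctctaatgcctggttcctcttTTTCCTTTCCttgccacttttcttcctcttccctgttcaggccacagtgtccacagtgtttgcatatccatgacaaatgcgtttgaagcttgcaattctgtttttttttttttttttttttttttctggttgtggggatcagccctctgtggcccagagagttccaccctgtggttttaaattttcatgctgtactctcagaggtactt
Clec4a3: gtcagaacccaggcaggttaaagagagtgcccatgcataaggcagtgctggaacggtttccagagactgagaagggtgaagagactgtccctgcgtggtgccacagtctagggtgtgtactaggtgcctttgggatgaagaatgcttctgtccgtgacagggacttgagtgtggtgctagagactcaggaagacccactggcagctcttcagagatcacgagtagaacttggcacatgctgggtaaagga
Clec4b1: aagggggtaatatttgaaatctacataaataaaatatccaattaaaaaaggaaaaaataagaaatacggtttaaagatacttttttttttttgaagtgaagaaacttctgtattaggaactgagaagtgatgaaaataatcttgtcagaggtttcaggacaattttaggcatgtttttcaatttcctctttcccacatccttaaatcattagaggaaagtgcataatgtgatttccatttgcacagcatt
Both strands were searched for 5 motifs, PU.1 (GAGGAAGT), AP-1 (TGANTCA), C/EBP (TTGCNNAA), STAT5 (TTCNNNGAA) and the ETS-IRF composite (GGAA and GAAA with a pair of free bases between them), which shares its GGAA core with the PU.1 motif. STAT5 is the factor that the GM-CSF receptor activates. The capitals in Clec7a and Clec4a1 are ETS-IRF matches, which 2.38% of 27025 promoters of this length also held. Clec4a3 and Clec4b1 held none of the 5 motifs. The STAT5 motif was found once among the 9 promoters, in Clec4a2 (TTCAAAGAA, 42 bases before the start), and in 7.18% of all promoters. A match describes letters in this window and is not a binding site.

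Across classes, expression was described without a test, because the classes were made from the same cells. Between 94.3% (Clec12a) and 98.3% (Clec9a) of each gene's UMIs fell in the myeloid classes and clusters. In lymphoid classes no library exceeded 14.02 CPM for any member. Clec9a was the narrowest of the 10. It averaged 299 ± 38.9 CPM in cDC1-like cells (SD, n = 4 libraries), 65.7 ± 19.6 CPM in plasmacytoid dendritic-like cells and at most 11.6 CPM on average in any other class. The lowest cDC1-like library, at 267 CPM, stood above the highest plasmacytoid library, at 94.6 CPM.

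Clec7a was broad among myeloid cells and low in cDC1-like cells. It averaged 530 ± 81.2 CPM (529.6) in classical monocyte-like cells, 490 ± 167 CPM (490.3) in neutrophil-like cells and 470 ± 74.3 CPM (469.6) in non-classical monocyte-like cells, and the libraries of these 3 classes overlapped. Summed macrophage markers reached 10514 to 26210 CPM in the neutrophil-like libraries, so levels of that class may not be those of neutrophils alone. Macrophage cluster 4 (347 ± 39.9 CPM) and the Retnla Fn1 cluster (303 ± 64.9 CPM) came next and also overlapped each other. Then came cDC2-like cells at 192 ± 12.3 CPM, macrophage cluster 6 at 80.6 CPM and cDC1-like cells at 32.7 CPM over all 4 libraries. The genes with the most similar pattern over 13 classes, by Pearson's r of log2 levels, were Card9 (r = 0.99), Tlr2 (0.97) and Il1b (0.97), a description across classes that share libraries.

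The Syk-coupled Clec4 genes each had their own order. Clec4b1 was highest in the Retnla Fn1 cluster (412 ± 75.0 CPM) and cDC2-like cells (295 ± 27.8 CPM), which did not overlap, and next highest in macrophage cluster 6 (67.9 ± 15.1 CPM). Clec4d was highest in neutrophil-like cells (742 ± 388 CPM), then in classical (131 ± 14.4 CPM) and non-classical monocyte-like cells (104 ± 6.80 CPM). Clec4e led in neutrophil-like cells (373 ± 203 CPM) and non-classical monocyte-like cells (340 ± 16.0 CPM, 339.6), which overlapped. Clec4n stayed at or below 45.04 CPM on average in every class, with neutrophil-like and classical monocyte-like cells at the top.

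Among the DCIR relatives, Clec4a1 and Clec4a3 shared an order that Clec4a2 did not follow. Clec4a3 averaged 605 ± 60.4 CPM in non-classical and 439 ± 19.1 CPM in classical monocyte-like cells, without overlap. Clec4a1 averaged 423 ± 38.5 CPM and 292 ± 11.4 CPM in the same classes, also without overlap. Clec4a2 averaged 321 ± 40.9 CPM in the Retnla Fn1 cluster and 284 ± 5.41 CPM in macrophage cluster 6, which overlapped, but only 43.5 CPM in non-classical monocyte-like cells. Over the 13 classes the log2 levels of Clec4a1 and Clec4a3 had r = 0.99 with each other, and each was closest to Lrp1, Tlr2 and Igsf6. Clec12a was the flattest. Its highest class was plasmacytoid dendritic-like cells at 114 ± 43.9 CPM, and cDC1-like (74.1 ± 7.30 CPM) and classical monocyte-like cells (69.1 ± 2.59 CPM) overlapped.

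**Figure D1:**
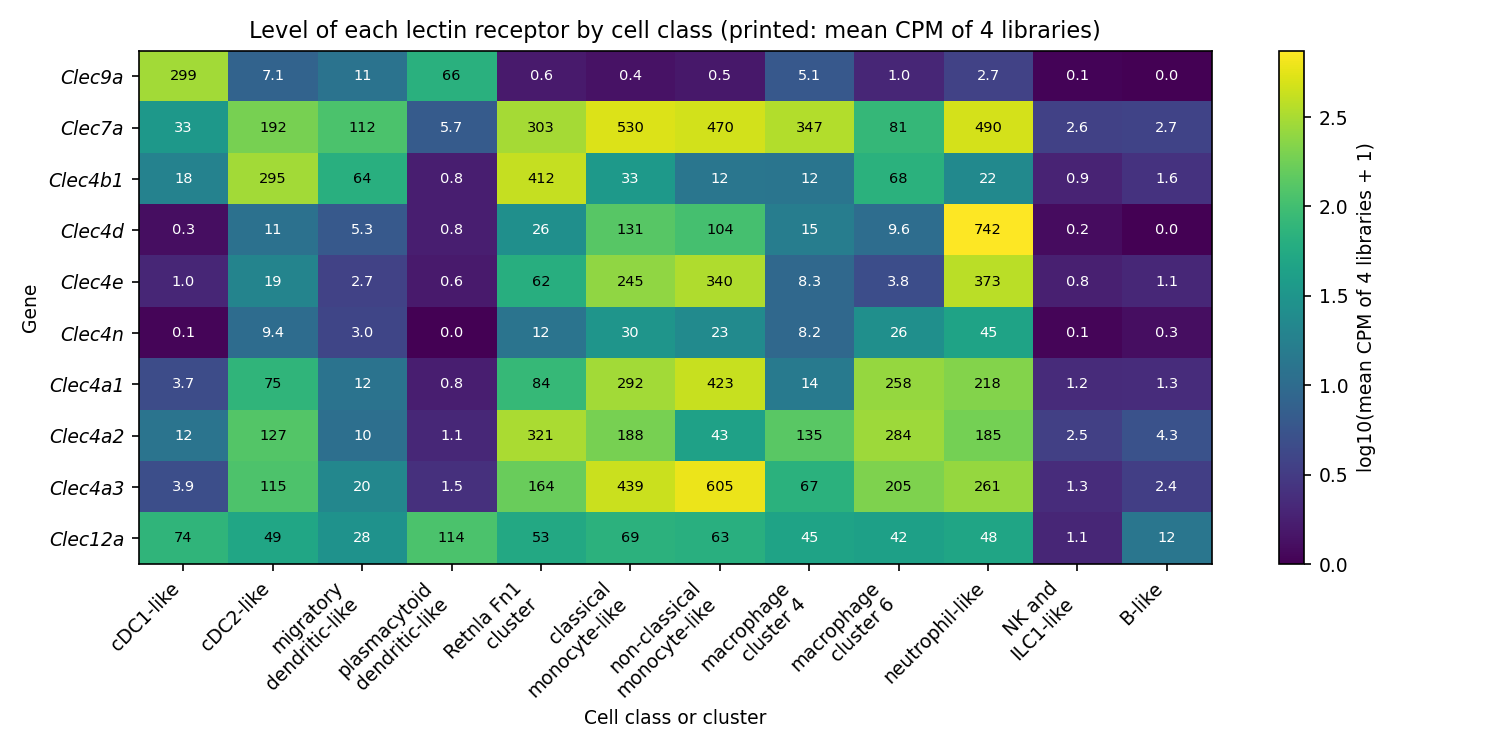
Mean CPM over the 4 libraries for each gene (rows) in 10 myeloid classes or clusters and 2 lymphoid classes (columns), coloured by log10 of the mean CPM plus 1. Clec9a is high in cDC1-like cells (299 CPM), Clec4d in neutrophil-like cells (742 CPM) and Clec7a in every myeloid column but the cDC1-like and plasmacytoid ones, while both lymphoid columns are low for all genes.

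Csf2-/- was then compared with Csf2+/- in each class by edgeR's quasi-likelihood test on the UMI sums of the 4 libraries, with p-values adjusted over all genes of the class. This tests whether loss of the remaining Csf2 copy changes the receptors within a class of cells. Of the 69 pairs of a gene and a myeloid class or cluster that passed the low-count filter, 5 (7.25%) had an adjusted p under 0.05, 3 higher and 2 lower. Over all genes tested, between 0.135% (macrophage cluster 6) and 4.72% (cDC2-like cells) were called. The members were chosen with earlier results of these data known, and cluster 6 was added after seeing the data. The share of pairs called can thus not be read as an excess over all genes. The macrophage-like class contains cluster 6, so these pairs are not all separate, and in the lymphoid, eosinophil-like and mast or basophil-like classes no member was called. The calls belonged to Clec7a, Clec4b1, Clec4a1 and Clec4a3. Clec4a2, Clec4d, Clec4e, Clec4n, Clec9a and Clec12a passed in none of these main fits, so 3 of the 7 Clec4 genes were called higher in them. With 2 libraries against 2, an exact permutation test could not go below p = 0.33, so the calls rest on the spread that edgeR shares between genes. Groups that do not overlap are common with 2 libraries each, and 36.5% to 49% of all tested genes had them, depending on the class.

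**Figure D2:**
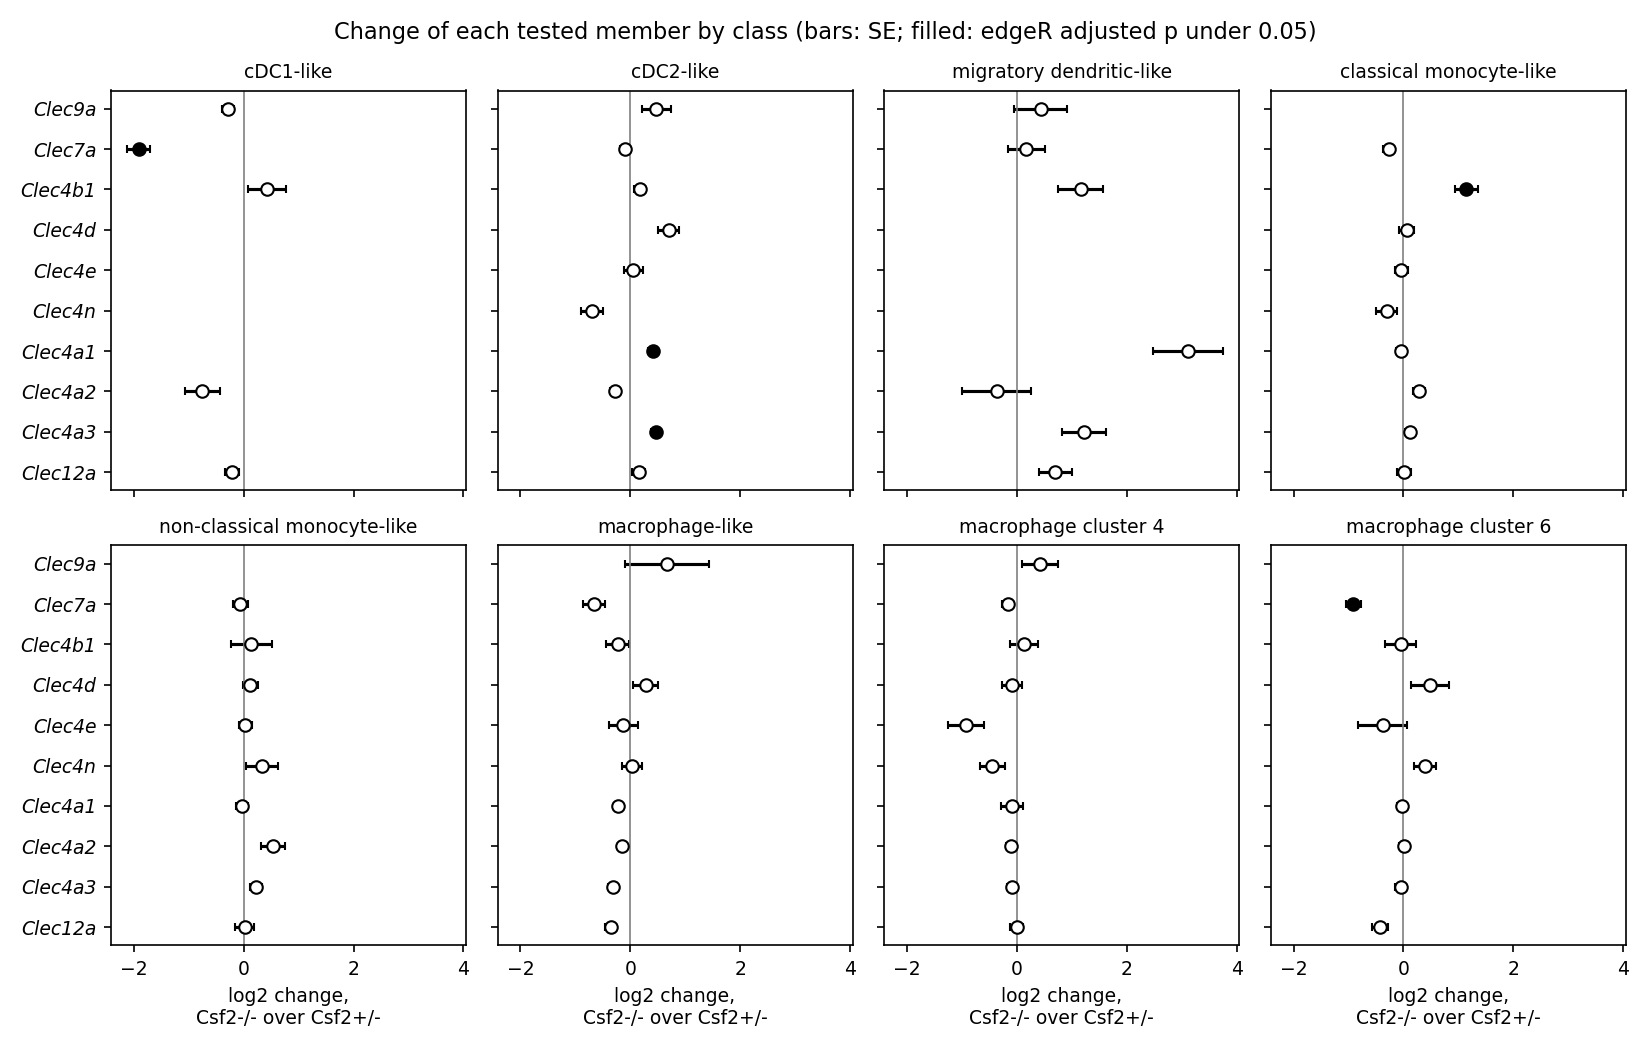
Log2 change (Csf2-/- over Csf2+/-, horizontal axis, bars are the SE) of every tested member in 8 classes or clusters, with filled points where edgeR's adjusted p was under 0.05. Clec7a in cDC1-like cells lies farthest to the left at -1.91, while Clec4a1 in migratory dendritic-like cells lies farthest to the right at 3.11 with a wide bar and no call.

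Clec7a fell in cDC1-like cells, where it was lowest among the myeloid classes tested. It stood at 14.5 and 13.3 CPM in the Csf2-/- libraries, against 46.4 and 56.6 CPM in the Csf2+/- libraries. These values came from 31 and 38 UMIs in Csf2-/- and 120 and 136 UMIs in Csf2+/-. Both Csf2-/- libraries lay well below both Csf2+/- libraries, and the Csf2-/- mean was 27.0% of the Csf2+/- mean. The log2 change was -1.91 (SE 0.21; edgeR adjusted p = 4.5e-05). Of 9123 genes tested in cDC1-like cells, 1.27% were called, 1.11% lower and 0.164% higher, and Clec7a ranked 5 by p, after Itgae, Mtss1, Bcl2a1b and Bcl2a1a. Itgae, which encodes the integrin CD103 and is one of the 12 cDC1 markers used for naming, stood at 17.8 and 13.3 CPM in Csf2-/-, against 132 and 138 CPM in Csf2+/- (log2 change -3.16; edgeR adjusted p = 3.8e-10).

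Only 5 of the 10 members passed the filter in cDC1-like cells, and the other 4 tested there were not called. Clec9a, which marks these cells, stood at 277 and 267 CPM in Csf2-/-, against 300 and 354 CPM (299.9 and 353.6) in Csf2+/-. The groups lay apart by little, and the log2 change was -0.28 (SE 0.11; edgeR adjusted p = 0.27). Clec12a stood at 64.1 and 73.6 CPM in Csf2-/-, against 80.8 and 77.9 CPM in Csf2+/-, a log2 change of -0.22 (SE 0.13; edgeR adjusted p = 0.53). Clec4a2 stood at 7.95 and 9.47 CPM in Csf2-/-, against 18.2 and 10.8 CPM in Csf2+/- (log2 change -0.75, SE 0.32; edgeR adjusted p = 0.34). Clec4b1 stood at 28.1 and 13.3 CPM in Csf2-/-, against 16.6 and 12.9 CPM in Csf2+/-, with overlap (log2 change 0.42, SE 0.34; edgeR adjusted p = 0.70). Clec9a, Clec12a and Clec4a2 had lower Csf2-/- libraries, and groups apart were found for 41.8% of the genes tested in this class.

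The Clec7a UMIs of cDC1-like cells were concentrated in few cells. At least 1 Clec7a UMI was seen in 13.2% and 13.7% of cDC1-like cells in the Csf2-/- libraries (exact 95% intervals 7.56% to 20.8% and 8.43% to 20.5%). In the Csf2+/- libraries the shares were 26.2% and 26.1% (18.7% to 34.97% and 18.2% to 35.3%). These intervals cover counting error only. After thinning every cell to 3000 UMIs, which left out 1 and 2 cells in Csf2-/- and 3 and 0 cells in Csf2+/-, 1.77% and 2.92% of Csf2-/- cells still held one, against 10.9% and 7.21% of Csf2+/- cells. In NK and ILC1-like cells, which should lack the gene, a Clec7a UMI was found before thinning in 2.93% and 2.25% of cells from the Csf2-/- libraries, against 1.81% and 2.24% from the Csf2+/- libraries, and after it in at most 1.15%. Thinned, both Csf2-/- shares in cDC1-like cells were thus below both Csf2+/- shares and not far above those of NK and ILC1-like cells. The median depth of cDC1-like cells was 17387 and 19156 UMIs in Csf2-/- and 20107 and 20470 UMIs in Csf2+/-, and that of NK and ILC1-like cells was 9328.5 and 9084 UMIs in Csf2-/- and 11499 and 10932 UMIs in Csf2+/-.

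Cells with 3 or more Clec7a UMIs numbered 9 of 253 in Csf2-/- and 25 of 233 in Csf2+/-, and these cells held 53.6% of the class's Clec7a UMIs in Csf2-/- and 81.6% in Csf2+/-. The most in 1 cell was 7 and 6 UMIs in the Csf2-/- libraries and 16 and 32 UMIs in the Csf2+/- libraries. In Csf2+/-, the cells with 3 or more UMIs had summed cDC1 markers of 6133 and 4779 CPM, against 5622 and 6130 CPM in cells with none, so the cDC1 sum was higher in one library and lower in the other. Their summed macrophage markers were 725 and 906 CPM, against 298 and 213 CPM in cells with none, and their summed migratory dendritic markers were 279 and 625 CPM, against 164 and 120.4 CPM. In Csf2-/- only 4 and 5 cells had 3 or more UMIs. Their migratory sums were 220 and 994 CPM (220.3 and 994.4), against 94.0 and 105 CPM in cells with none. Their macrophage sums were 428 and 1167 CPM, against 401 and 270 CPM in cells with none, so the female library showed little difference. Over the whole class the macrophage marker sum was 404 and 317 CPM in Csf2-/- and 393 and 315 CPM in Csf2+/-, with 2 of 12 markers higher and 1 lower in both Csf2-/- libraries and no marker at 0. Other sums moved with genotype. Those of cDC2 markers were 384 and 416 CPM in Csf2-/-, against 448 and 494 CPM in Csf2+/-. Those of classical monocyte markers were 873 and 998 CPM in Csf2-/-, against 679 and 659 CPM in Csf2+/-. Of the 9 monocyte markers, 4 were higher and 1 lower in both Csf2-/- libraries. Plac8, 1 of the 9, alone stood at 479 and 511 CPM in Csf2-/-, against 296 and 207 CPM in Csf2+/-. B cell marker sums were 248 and 194 CPM in Csf2-/-, against 134 and 125 CPM in Csf2+/-. The part of these cells in the Clec7a change was not tested.

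**Figure D3:**
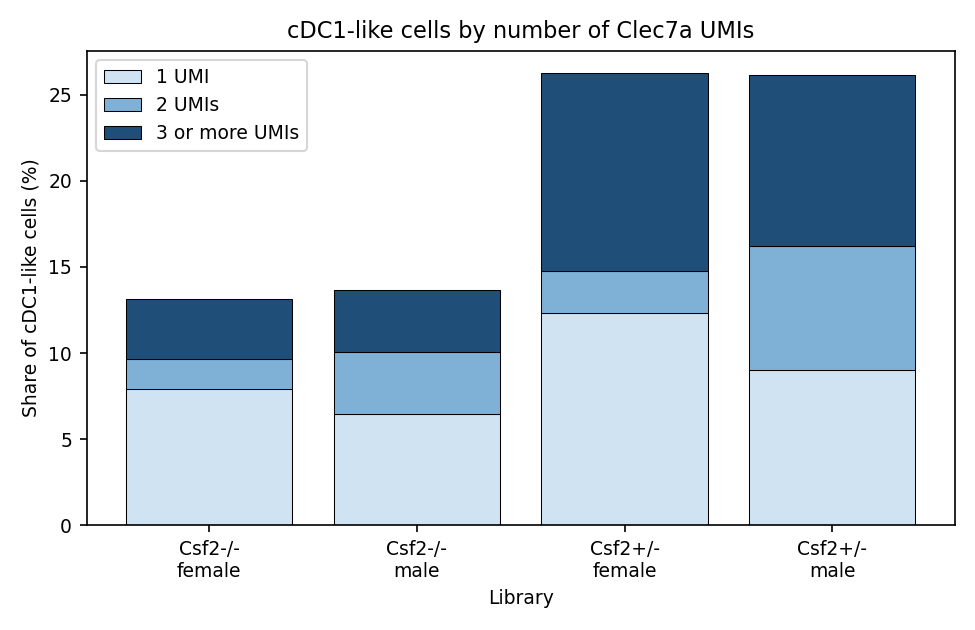
Share of cDC1-like cells (vertical axis, percent) with 1, 2, or 3 and more Clec7a UMIs in each library, with bars stacked and starting at 0. The Csf2-/- bars reach 13.2% and 13.7%, and the Csf2+/- bars 26.2% and 26.1%, with the darkest segment smaller in both Csf2-/- libraries.

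In cDC2-like cells Clec7a was not called. It stood at 196 and 175 CPM in Csf2-/-, against 193.5 and 204 CPM in Csf2+/-, so the groups overlapped (log2 change -0.10, SE 0.09; edgeR adjusted p = 0.65). The change of Clec7a differed between the 2 dendritic classes. Tested as the difference itself, cDC1-like minus cDC2-like was -1.81 on the log2 scale (edgeR adjusted p = 6.05e-07), in a test where 1.28% of 10747 genes were called. Against macrophage-like cells the difference was -1.24 (edgeR adjusted p = 0.0103), where 1.23% of 11433 genes were called. That call was lost without the female Csf2-/- library (-1.15; edgeR adjusted p = 0.17) and without the male Csf2-/- library (-1.34; edgeR adjusted p = 0.27).

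Clec7a also fell in macrophage cluster 6, which is led by Folr2 and Lyve1, known from tissue-resident macrophages. It stood at 61.3 and 50.7 CPM in Csf2-/-, from 205 and 275 UMIs, against 113 and 97.7 CPM in Csf2+/-, from 330.0 and 340.0 UMIs. The Csf2-/- libraries lay well below the Csf2+/- ones. The log2 change was -0.91 (SE 0.14; edgeR adjusted p = 0.031), and Clec7a was the only member called of 9 tested, where 0.135% of 10378 genes were called, 0.116% lower and 0.0193% higher. The call was lost without the female Csf2+/- library (-0.80; edgeR adjusted p = 0.38) and without the male Csf2+/- library (-1.02; edgeR adjusted p = 0.34), fits in which edgeR called 0 genes of the cluster (993 and 1095 had an unadjusted p under 0.05). NK and ILC1 marker sums in this cluster overlapped, at 55.6 and 85.5 CPM in Csf2-/- and 48.8 and 59.2 CPM in Csf2+/-, and so did macrophage marker sums, with 6 of 12 markers higher and 3 lower in both Csf2-/- libraries.

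Over the whole macrophage-like class Clec7a was not called in the main fit, and whether it passed depended on the setting. It stood at 138 and 109 CPM in Csf2-/-, against 214 and 169 CPM in Csf2+/-, without overlap. The log2 change was -0.66 (SE 0.19; edgeR adjusted p = 0.17), where 2.06% of 12019 genes were called, 1.17% higher and 0.89% lower. It passed with DESeq2 (adjusted p = 0.0039), without the low-count filter (edgeR adjusted p = 1.3e-07), with sex as a term (edgeR adjusted p = 0.00032), without the female Csf2-/- library (edgeR adjusted p = 0.013), at resolution 0.8 (edgeR adjusted p = 0.012) and with seeds 2 and 3 (edgeR adjusted p = 0.020 and 0.014). It did not pass with limma-voom, with doublets kept or with cells of at least 2000 UMIs. Nor did it pass without the female or the male Csf2+/- library, or without the male Csf2-/- library. Lymphocyte markers moved with genotype in this class. NK and ILC1 marker sums were 633 and 870 CPM (633.4 and 870.1) in Csf2-/-, against 271 and 357 CPM in Csf2+/-, and alpha-beta T marker sums were 357 and 468 CPM in Csf2-/-, against 178 and 201 CPM in Csf2+/-, with 12 of 12 markers higher in both lists. Their part in the class's values was not tested.

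In macrophage cluster 4 Clec7a stood at 333 and 331 CPM in Csf2-/-, against 318 and 406 CPM in Csf2+/-, with overlap (log2 change -0.16, SE 0.10; edgeR adjusted p = 0.61). The difference between the 2 clusters, cluster 4 minus cluster 6, was 0.76 (edgeR adjusted p = 0.13), where 0.195% of 11791 genes were called. It passed without the male Csf2+/- library (1.02; edgeR adjusted p = 0.022), without the female Csf2-/- library (0.87; edgeR adjusted p = 5.2e-05) and without the male Csf2-/- library (0.63; edgeR adjusted p = 0.021), and not without the female Csf2+/- library (0.50; edgeR adjusted p = 0.42). Monocytes gave no Clec7a call. Classical monocyte-like cells had 461 and 492 CPM in Csf2-/-, against 519 and 646 CPM in Csf2+/- (log2 change -0.27, SE 0.10; edgeR adjusted p = 0.34). Non-classical monocyte-like cells, at 410.5 and 509 CPM in Csf2-/- and 404.5 and 555 CPM in Csf2+/-, overlapped (log2 change -0.06, SE 0.13; edgeR adjusted p = 0.96).

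**Figure D4:**
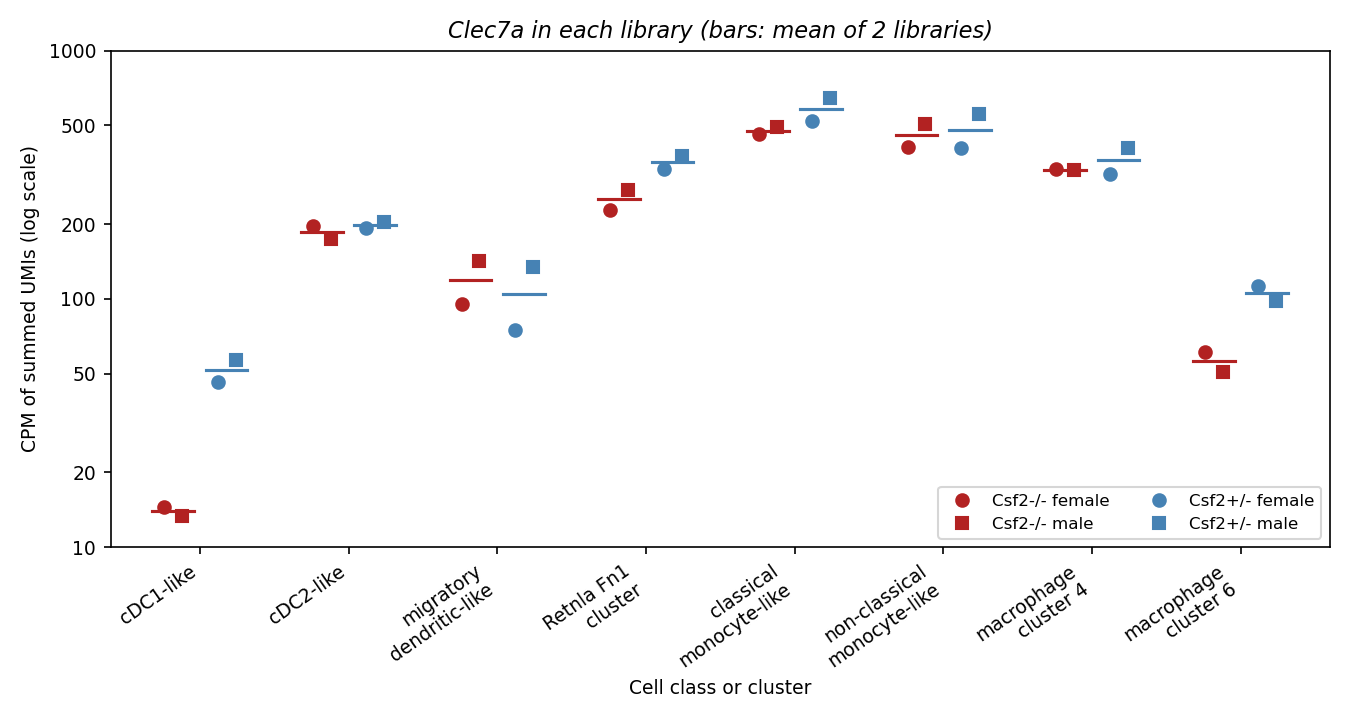
Clec7a in each library (CPM of summed UMIs, logarithmic axis) in 8 classes or clusters, with Csf2-/- in red on the left and Csf2+/- in blue on the right of each class and bars at the mean of 2 libraries. The widest gap is in cDC1-like cells, at 14.5 and 13.3 CPM in Csf2-/- against 46.4 and 56.6 CPM in Csf2+/-, the next in macrophage cluster 6, and in cDC2-like, migratory and non-classical monocyte-like cells and macrophage cluster 4 the genotypes overlap.

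Clec4b1 rose in classical monocyte-like cells. It stood at 36.3 and 55.0 CPM in Csf2-/-, from 77 and 171 UMIs, against 21.2 and 21.3 CPM in Csf2+/-, from 42 and 48 UMIs. Both Csf2-/- libraries were above both Csf2+/- libraries, and the male one was the higher. The log2 change was 1.15 (SE 0.22; edgeR adjusted p = 0.020), where 0.623% of 8829 genes were called, 0.396% higher and 0.227% lower. The call was lost with DESeq2 (adjusted p = 0.17), without the female Csf2+/- library (edgeR adjusted p = 0.071), without the male Csf2+/- library (edgeR adjusted p = 0.094), without the male Csf2-/- library (0.81; edgeR adjusted p = 0.44) and with doublets kept (edgeR adjusted p = 0.10). With seeds 2 and 3 it passed.

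At least 1 Clec4b1 UMI was seen in 16.1% and 21.4% of classical monocyte-like cells in Csf2-/- (exact 95% intervals 11.3% to 21.9% and 16.8% to 26.5%). In Csf2+/- the shares were 14.4% and 11.4% (9.52% to 20.5% and 7.46% to 16.5%), so the intervals of the female libraries overlapped. Thinned to 3000 UMIs, which left out 0 and 8 cells in Csf2-/- and 0 and 1 cells in Csf2+/-, 8.29% and 11.5% of Csf2-/- cells held one, against 5.75% and 4.78% of Csf2+/- cells. In NK and ILC1-like cells, unthinned, 0.613% and 0.770% did in the Csf2-/- libraries, against 1.31% and 1.29% in the Csf2+/- libraries. The median depth of the monocytes was 9439 and 9385 UMIs in Csf2-/- and 10440.0 and 10250.5 UMIs in Csf2+/-. Cells with 3 or more Clec4b1 UMIs numbered 30 of 500 in Csf2-/- and 10 of 384 in Csf2+/-. Clec4b1 shares 21.0% of the sequence words near its 3′ end with other genes, most with Clec4a2, so its count may be affected.

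Markers of other cells were higher in the Csf2-/- monocytes. NK and ILC1 marker sums were 312 and 214 CPM in Csf2-/-, against 69.8 and 69.7 CPM in Csf2+/-, with 11 of 12 markers higher in both Csf2-/- libraries, and the lymphocyte genes Gzma, Nkg7 and Klre1 were among the 5 genes with the lowest p that rose there. Macrophage marker sums were 5890 and 5480 CPM in Csf2-/-, against 4339 and 5072 CPM in Csf2+/-, with 6 of 12 higher and 1 lower. The cDC2 marker sums, which stand for a class high in Clec4b1, overlapped at 607 and 702 CPM in Csf2-/- and 631 and 671 CPM (630.5 and 670.8) in Csf2+/-, although 6 of the 11 markers were higher and 1 lower in both Csf2-/- libraries. No lymphoid class exceeded 4.21 CPM of Clec4b1 in any library. The part of macrophage and cDC2 markers in the rise was not tested.

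The other 8 members tested in classical monocyte-like cells were not called. Clec4n was the farthest below 0. It stood at 28.3 and 25.4 CPM in Csf2-/-, against 34.9 and 32.4 CPM in Csf2+/-, without overlap (log2 change -0.31, SE 0.19; edgeR adjusted p = 0.60). The log2 changes of Clec4d (0.06), Clec4e (-0.04), Clec4a1 (-0.04), Clec4a3 (0.12) and Clec12a (0.01) were small, and that of Clec4a2 was 0.29. In non-classical monocyte-like cells 9 members were tested and none was called, where 0.259% of 8123 genes were, 0.16% higher and 0.0985% lower. The member farthest from 0 was Clec4a2, at 45.3 and 57.7 CPM in Csf2-/-, against 29.7 and 41.2 CPM in Csf2+/- (log2 change 0.53, SE 0.21; edgeR adjusted p = 0.52).

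In cDC2-like cells the neighbouring genes Clec4a3 and Clec4a1 rose. All 10 members were tested there, and 4.72% of 11058 genes were called, 2.35% higher and 2.37% lower. Groups apart were found for 46.9% of these genes. Clec4a3 stood at 135 and 132 CPM in Csf2-/-, against 99.2 and 94.0 CPM in Csf2+/-, without overlap. Its log2 change was 0.47 (SE 0.08; edgeR adjusted p = 0.0053), and the call was lost only at resolution 0.8 (0.36; edgeR adjusted p = 0.39). There the cDC2-like class held only 359 cells, led by Cd209a and by genes of dividing cells such as Birc5 and Ccna2, so it was another set of cells. Clec4a1 stood at 78.3 and 92.6 CPM in Csf2-/-, against 65.8 and 62.2 CPM in Csf2+/-, also without overlap. Its log2 change was 0.42 (SE 0.09; edgeR adjusted p = 0.016), and the call was lost with DESeq2 (adjusted p = 0.12), without the male Csf2+/- library (edgeR adjusted p = 0.088), without the male Csf2-/- library (edgeR adjusted p = 0.22), with doublets kept (edgeR adjusted p = 0.065) and at resolution 0.8 (edgeR adjusted p = 0.17).

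The third relative, Clec4a2, stood at 119 and 110.3 CPM in Csf2-/-, against 139 and 138 CPM (139.0 and 138.4) in Csf2+/-. The Csf2-/- libraries were the lower ones, and the log2 change was -0.28 (SE 0.09; edgeR adjusted p = 0.093). Clec4b1 stood at 335 and 290 CPM (335.3 and 289.7) in Csf2-/-, against 271 and 286 CPM in Csf2+/-, the Csf2-/- libraries a little higher (log2 change 0.17, SE 0.09; edgeR adjusted p = 0.38). Clec4d stood at 12.3 and 13.98 CPM in Csf2-/-, against 6.91 and 9.48 CPM in Csf2+/- (log2 change 0.70, SE 0.20; edgeR adjusted p = 0.064; 0.040 without the male Csf2+/- library and 0.029 with seed 2). Clec4n stood at 7.33 and 6.99 CPM in Csf2-/-, against 10.5 and 12.8 CPM in Csf2+/- (log2 change -0.70, SE 0.20; edgeR adjusted p = 0.061). In both genes the libraries of the genotypes did not overlap, and both missed the threshold in the main fit. The changes of Clec9a (0.48), Clec12a (0.15) and Clec4e (0.05) also missed it. Without the low-count filter, 3 members were called higher and 2 lower in cDC2-like cells.

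The genotype changes of Clec4a3 and Clec4a1 in cDC2-like cells differed from those in macrophage-like cells, by 0.78 (0.775; edgeR adjusted p = 0.00114) and 0.64 (0.637; edgeR adjusted p = 0.00959) on the log2 scale, and each passed with any 1 library left out. In that test 3.19% of 12260 genes were called. The difference for Clec7a was 0.55 (edgeR adjusted p = 0.080), and it passed without the male Csf2+/- library (0.74; edgeR adjusted p = 0.0017) and without the female Csf2-/- library (0.62; edgeR adjusted p = 0.014). In macrophage-like cells Clec4a3 stood at 158 and 138 CPM in Csf2-/-, against 180 and 181 CPM (179.8 and 181.5) in Csf2+/-. The Csf2-/- libraries were lower there, with a log2 change of -0.31 (SE 0.09; edgeR adjusted p = 0.12), which passed with sex as a term (edgeR adjusted p = 0.021), without the low-count filter (edgeR adjusted p = 0.010) and without the female Csf2-/- library (-0.44; edgeR adjusted p = 0.016). With sex as a term Clec4a1 also passed there (-0.22; edgeR adjusted p = 0.049). The difference thus set a rise in cDC2-like cells against values that leaned the other way in macrophage-like cells. In macrophage cluster 6 alone the log2 changes were only -0.05 (Clec4a3) and -0.02 (Clec4a1). The make-up of the macrophage-like class also moved with genotype. Its cluster 21, led by Lyve1, Pf4 and Ccl7, held 114 and 274 of 806 and 1199 cells in Csf2-/-. In Csf2+/- it held 33 and 72 of 589 and 717 cells. After macrophage markers (score 1.52), cluster 21 scored next highest for NK and ILC1 markers (0.93). Its median depth was 18430 UMIs, against 9106 UMIs in cluster 6. The part of cluster 21 in the class's lymphocyte marker sums, and that of the shift in make-up in the difference, was not tested.

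T cell markers moved with genotype in cDC2-like cells too. Alpha-beta T marker sums were 217 and 314 CPM in Csf2-/-, against 97.5 and 131 CPM in Csf2+/-, with 12 of 12 markers higher in both Csf2-/- libraries. NK and ILC1 marker sums were 376 and 426 CPM in Csf2-/-, against 246 and 239 CPM in Csf2+/-, with 9 of 12 markers higher. Lymphoid classes did not exceed 5.81 CPM of Clec4a3 or 4.58 CPM of Clec4a1 in any library. Sums of macrophage markers were 1382 and 1578 CPM in Csf2-/-, against 1144 and 1201 CPM in Csf2+/-, with 6 of 12 higher and 2 lower, and those of classical monocyte markers were 1257 and 1514 CPM in Csf2-/-, against 1149.9 and 1174 CPM in Csf2+/-. Macrophages and monocytes express both genes, and their part in the rise was not tested.

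**Figure D5:**
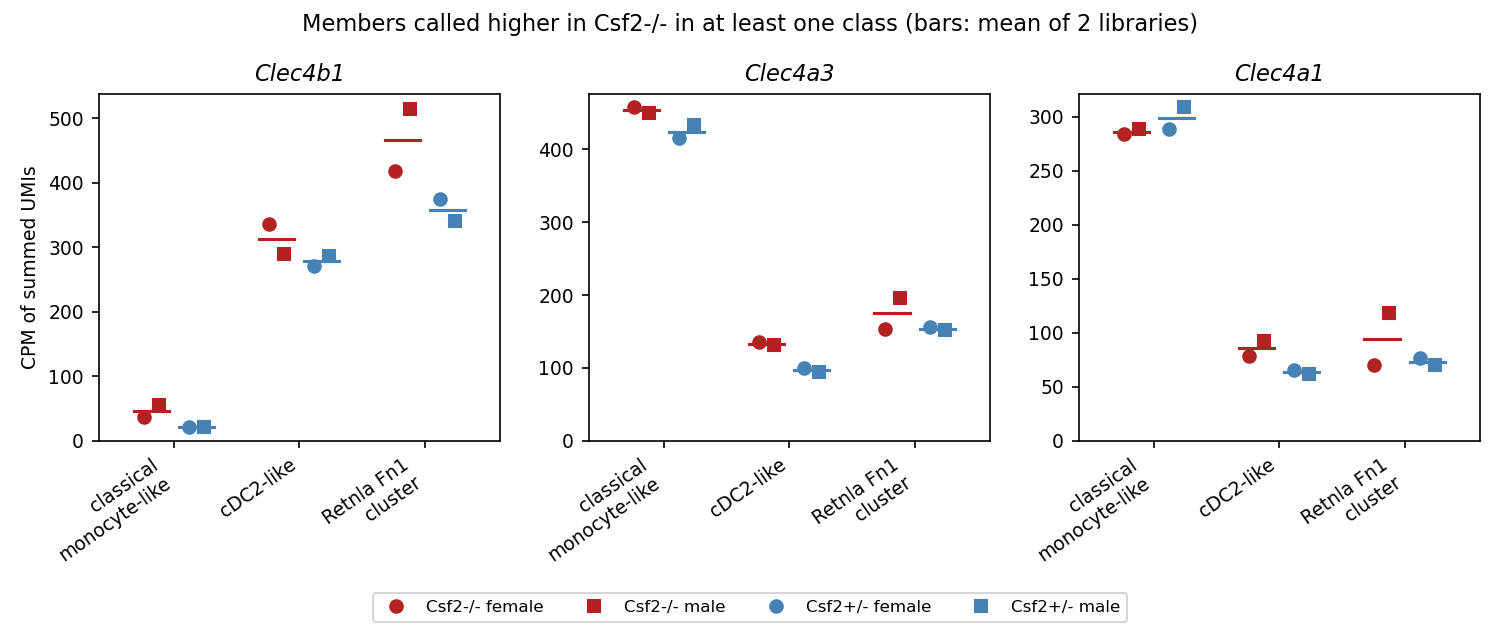
Clec4b1, Clec4a3 and Clec4a1 in each library (CPM of summed UMIs, axes from 0) in classical monocyte-like cells, cDC2-like cells and the Retnla Fn1 cluster, with Csf2-/- in red on the left of each class and bars at the mean of 2 libraries. Clec4b1 is apart in classical monocyte-like cells at 36.3 and 55.0 CPM in Csf2-/- against 21.2 and 21.3 CPM in Csf2+/-, and Clec4a3 in cDC2-like cells at 135 and 132 CPM in Csf2-/- against 99.2 and 94.0 CPM in Csf2+/-.

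The Retnla Fn1 cluster had 54 and 44 cells in Csf2-/-, against 275 and 338 cells in Csf2+/-, and so fell under the minimum of 50 cells in every library and was not tested. Clec12a stood there at 59.2 and 69.1 CPM in Csf2-/-, from 61 and 49 UMIs, against 40.3 and 41.4 CPM in Csf2+/-, the Csf2-/- libraries being higher. Clec7a stood at 228 and 275 CPM in Csf2-/-, against 334 and 376 CPM (334.2 and 375.5) in Csf2+/-, with the Csf2-/- libraries lower. Clec4b1 stood at 418 and 513 CPM in Csf2-/-, against 374 and 340.5 CPM in Csf2+/-, with the Csf2-/- libraries higher. Where the clustering was repeated with another seed the cluster reached 50 cells in every library, and Clec12a passed in both repeats. Its log2 change was 0.64 with seed 2 (edgeR adjusted p = 0.0056), where 967 of 9910 genes were called, and 0.70 with seed 3 (edgeR adjusted p = 0.045), where 192 of 9709 were. With seed 2, Clec4d, Clec4e, Clec4a1 and Clec4a3 were also called higher and Clec4a2 lower, and with seed 3 no other member was called. At resolution 0.8, where the cluster held 416 and 567 cells in Csf2-/- and 660.0 and 696 cells in Csf2+/- and 1992 of 11416 genes were called, Clec12a missed the threshold (0.28; edgeR adjusted p = 0.079), Clec4a1 and Clec9a were called higher and Clec7a (-0.39; edgeR adjusted p = 0.012), Clec4a2 and Clec4n lower. The cluster at resolution 0.8 had 2339 cells, against 711 in the main clustering, and was led by Cd209a and Cd209d besides Retnla and Fn1. Cd209a and Cd209d also led the main cDC2-like cells, so it had taken in cDC2-like cells. The part of this mix in the calls was not tested. The seed 2 cluster held 98 and 91 cells in Csf2-/- and 303 and 363 cells in Csf2+/-, and that of seed 3 held 61 and 55 cells in Csf2-/- and 275 and 347 cells in Csf2+/-, so these calls depended on which cells the cluster took in.

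Migratory dendritic-like cells, which had 75 and 87 cells in Csf2-/- and 129 and 122 cells in Csf2+/-, gave large changes with few UMIs. Clec4a1 stood at 8.95 and 32.5 CPM in Csf2-/-, from 9 and 39 UMIs, against 1.71 and 3.07 CPM in Csf2+/-, from 4 and 6 UMIs. The log2 change was 3.11 (SE 0.64; edgeR adjusted p = 0.079), and it was 1.30 with predicted doublets kept. It passed with seed 2 (edgeR adjusted p = 0.025), and with 1 library left out edgeR's adjusted p ran from 9.3e-06 to 0.68. Clec4a3 stood at 21.9 and 34.97 CPM in Csf2-/-, against 7.25 and 17.4 CPM in Csf2+/- (log2 change 1.22, SE 0.39; edgeR adjusted p = 0.29). Without the male Csf2+/- library it passed, as did Clec4b1, Clec12a and Clec4a1. No member of the 7 tested passed, where 0.478% of 7951 genes were called and 39.7% had groups apart. Macrophage marker sums in these cells were 402.6 and 392.2 CPM in Csf2-/-, against 236 and 232 CPM in Csf2+/-, with 7 of 12 markers higher, and their part was not tested.

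In macrophage cluster 4 all 10 members were tested and none passed, where 0.812% of 11084 genes were called. The largest change there was that of Clec4e, at 3.54 and 8.44 CPM in Csf2-/-, against 9.51 and 11.7 CPM in Csf2+/- (log2 change -0.92, SE 0.32; edgeR adjusted p = 0.31, and 0.00017 without the male Csf2-/- library). The DCIR relatives had small changes in cluster 6, with log2 values of -0.02 (Clec4a1), 0.02 (Clec4a2) and -0.05 (Clec4a3). Clec12a in cluster 6 stood at 34.1 and 37.2 CPM in Csf2-/-, against 50.8 and 45.7 CPM in Csf2+/- (log2 change -0.42, SE 0.15; edgeR adjusted p = 0.21). Over the macrophage-like class it stood at 46.5 and 46.0 CPM in Csf2-/-, against 57.3 and 59.4 CPM in Csf2+/- (log2 change -0.36, SE 0.10; edgeR adjusted p = 0.089), a change that passed with sex as a term (edgeR adjusted p = 0.023) and without the low-count filter (edgeR adjusted p = 0.035). In both the Csf2-/- libraries were lower, and groups apart were found for 45.1% of the genes tested in cluster 6 and 49% of those in the class. Neutrophil-like cells were too few for a test, with 60 and 64 cells in Csf2-/- and 39 and 42 cells in Csf2+/-. Clec4d stood there at 716 and 287 CPM in Csf2-/-, against 1236 and 728 CPM in Csf2+/-, so the Csf2-/- libraries were lower, the higher of them only just. Neutrophil marker sums in this class were 49072 and 9520 CPM in Csf2-/-, against 76130 and 30283 CPM in Csf2+/-. Its macrophage marker sums were 21346 and 26210 CPM in Csf2-/-, against 10514 and 21248 CPM in Csf2+/-. The class thus held a mix that varied between libraries, and its part in the Clec4d values was not tested.

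Lists of genes around these receptors were counted in the same tests. Of 17 genes of activating signalling (Syk, Card9 and the NF-kB genes among them), 16 were tested in cDC2-like cells, and 1 rose and 3 fell, where 4.72% of all genes were called. Malt1, a protease of the Card9 complex, stood at 228 and 239 CPM in Csf2-/-, against 326 and 407 CPM in Csf2+/- (log2 change -0.65; edgeR adjusted p = 0.0015). Prkcd, a kinase between Syk and Card9 (log2 change -0.47; edgeR adjusted p = 0.0043), and Nfkb1 (-0.37; edgeR adjusted p = 0.015) fell, and Tyrobp, an adaptor that couples receptors to Syk, rose (0.26; edgeR adjusted p = 0.037). The list's median was -0.11, against 0.01 for all genes. In macrophage-like cells all 17 were tested, and Malt1 rose (0.45; edgeR adjusted p = 0.018) while Prkcd fell (-0.46; edgeR adjusted p = 0.038), where 2.06% of all genes were called. Malt1 also fell in migratory dendritic-like cells (log2 change -0.56; edgeR adjusted p = 0.042), and Nfkb1 in macrophage cluster 4 (-0.49; edgeR adjusted p = 0.012). No gene of this list was called in cDC1-like cells, where 16 were tested with a median of -0.13, or in either monocyte class.

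Of 15 target cytokines and related genes, 10 were tested in cDC1-like cells, 2 fell and none rose, where 1.27% of all genes were called, with a median of -0.35 against 0.00 for all genes. Il1b stood at 279 and 281 CPM in Csf2-/-, against 445 and 391 CPM in Csf2+/- (log2 change -0.60; edgeR adjusted p = 0.0064), and the early response gene Nr4a1 fell by 0.56 on the log2 scale (edgeR adjusted p = 0.016). In cDC2-like cells 13 were tested, and the chemokine genes Ccl4 (log2 change 0.39; edgeR adjusted p = 0.011) and Ccl3 (0.39; edgeR adjusted p = 0.015) rose, where 4.72% of all genes were called. In non-classical monocyte-like cells Ccl4 stood at 498 and 488 CPM in Csf2-/-, against 270 and 265 CPM (269.6 and 264.8) in Csf2+/- (log2 change 0.89; edgeR adjusted p = 7.0e-06), and Ccl3 rose by 0.80 (edgeR adjusted p = 0.00024), 2 of the 10 genes of the list tested there. Of all genes tested in non-classical monocyte-like cells, 0.259% were called. No gene of this list was called in classical monocyte-like, macrophage-like or migratory dendritic-like cells.

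Of 7 inhibitory signalling genes, all tested in every class, Dok2, an adaptor that dampens receptor signals, changed in opposite directions. In cDC2-like cells it fell, at 79.6 and 75.3 CPM in Csf2-/-, against 108 and 131 CPM in Csf2+/- (log2 change -0.62; edgeR adjusted p = 0.0023). In classical monocyte-like cells it rose, at 51.9 and 61.8 CPM in Csf2-/-, against 25.8 and 34.2 CPM in Csf2+/- (log2 change 0.95; edgeR adjusted p = 0.020). Of 18 related lectins, 12 were tested in cDC2-like cells and Cd72 (log2 change 0.76; edgeR adjusted p = 0.0017), Cd69 (0.55; edgeR adjusted p = 0.0041) and Clec2i (0.59; edgeR adjusted p = 0.036) rose. In that class 4.72% of all genes were called, 2.35% higher. Cd69 also rose in cDC1-like cells (0.98; edgeR adjusted p = 0.016), macrophage-like cells (0.64; edgeR adjusted p = 0.049) and macrophage cluster 6 (1.93; edgeR adjusted p = 0.040), and Cd72 in non-classical monocyte-like cells (2.69; edgeR adjusted p = 0.0019). Cd69 and Cd72 are also genes of lymphocytes, whose marker sums were higher in Csf2-/- in cDC2-like and macrophage-like cells as given above, and their part was not tested.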

How the data were processed

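The authors deposited raw UMI counts, with no normalization, from 10x 3′ v2 libraries per the labels' protocols, made with Cell Ranger 7.0.0 and GRCm39 per the submitters' processing notes. Filters were 500 UMIs, 300 genes and a mitochondrial share of up to 10%, and the barcodes with the highest Scrublet scores (7.46% to 8.07% of a library) were removed as doublets. Cells were clustered (scanpy 1.11.5, Leiden resolution 1.5) without the 33 Clec genes into 43 clusters and named from fixed markers, with 7 clusters left unnamed. Summed counts of classes with at least 50 cells per library were tested with edgeR 4.0.16 (TMM, default filter, genotype the only term, 2 residual degrees of freedom). The Benjamini-Hochberg adjustment ran over all genes of a class, with a threshold of 0.05, and the SE is the change over the square root of F. CPM values were computed from the sums. Alternatives were DESeq2, limma-voom, no filter, sex as a term, each library left out, doublets kept, cells over 2000 UMIs and resolution 0.8. Added after seeing the data were macrophage clusters 4 and 6 on their own and, because a run under other numeric settings had given another partition and other calls, clustering seeds 2 and 3. On simulated data of 9123 genes of cDC1-like cells, 68 of 100 genes changed by 1 log2 unit and 93 of 100 changed by 2 were recovered, with 9 false calls.

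The members and gene lists were chosen with earlier results of these data known. Genes named beyond the members were list genes past 0.05 (up to 4 per list and class), the genes with the most similar pattern, and the 5 lowest p-values in each direction in classes with a called member (only those a result turns on are printed). Of the 31-base words in the last 600 bases of coding transcripts (GENCODE vM21), 21.0% for Clec4b1 and 13.2% for Clec4a2 also occur in another gene. Clec4b1 shares most with Clec4a2, and Clec4a2 with Clec4a4, so counts of these genes may be affected. For the other members at most 3.94% do. Promoters came from RefSeq (GRCm38.p6).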

Additional observations from a re-analysis of the deposited data

Results flagged for a closer look

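The change of Clec7a between genotypes differed between classes in 2 tests of the difference itself, both on the log2 scale. It was -1.81 for cDC1-like minus cDC2-like cells (edgeR adjusted p = 6.05e-07) and -1.24 for cDC1-like minus macrophage-like cells (edgeR adjusted p = 0.0103). For cDC2-like minus macrophage-like cells the change differed for Clec4a3 by 0.78 (0.775; edgeR adjusted p = 0.00114) and for Clec4a1 by 0.64 (0.637; edgeR adjusted p = 0.00959). The call for cDC1-like minus macrophage-like cells was lost without the female and without the male Csf2-/- library. The members were chosen with earlier results of these data known, so these tests are not independent of that choice. All of these compare sums from the same 4 libraries, and no group had enough libraries to look for one that stands apart.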

How the results depend on the processing

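The fall of Clec7a in cDC1-like cells passed the threshold in 13 of 13 alternatives (log2 changes from -2.05 to -1.39), the rise of Clec4a3 in cDC2-like cells in 12 of 13 (0.36 to 0.52), that of Clec4a1 in 8 of 13, that of Clec4b1 in classical monocyte-like cells in 7 of 12 and the fall of Clec7a in macrophage cluster 6 in 8 of 10. Over all members and classes, 779 alternative values stayed on their side of the threshold, 30 newly passed, 13 no longer passed and none of those past it changed sign. The cause of these moves was not tested. With seeds 2 and 3 the cDC1-like class held the same 486 cells, while 80.9% of the classical monocyte-like cells kept their class with seed 3. Resolution 0.8 and the cut at 2000 UMIs also gave back the main cDC1-like fit, with 9123 genes tested and 116 called. The passes of Clec7a in cDC1-like cells under these settings and seeds thus repeat the main result and add nothing to it. No paired analysis was possible because replicate numbers follow only accession order, so sex stood in as the replicate block. With it the genes called were 302 in cDC1-like, 1239 in macrophage-like (4 members), 6 in migratory dendritic-like and 122 in non-classical monocyte-like cells, 190 in macrophage cluster 4 and 952 in cluster 6. With DESeq2 they were 33 in cDC1-like, 285 in cDC2-like (1 member), 27 in classical monocyte-like (0 members) and 5 in non-classical monocyte-like cells and 38 in cluster 4, with 1 member in macrophage-like cells. Without the low-count filter they were 316 in cDC1-like, 959 in cDC2-like (3 members higher, 2 lower), 190 in classical monocyte-like and 1110 in macrophage-like cells (3 lower). They were 254 in migratory dendritic-like (3 higher, 2 lower) and 67 in non-classical monocyte-like cells, 355 in cluster 4 (1 lower) and 377 in cluster 6. With doublets kept they were 342 in cDC2-like (1 member), 39 in macrophage-like, 18 in migratory dendritic-like and 6 in non-classical monocyte-like cells, with 0 members in classical monocyte-like cells. At resolution 0.8 they were 161 in cDC2-like (0 members) and 24 in migratory dendritic-like cells, 1 member was called in macrophage-like cells, and neither monocyte class formed. With seed 2, 1 member was called in macrophage-like and 1 in migratory dendritic-like cells, and with seed 3, 1 in macrophage-like cells, with 16 genes in classical monocyte-like cells.

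Leaving out 1 library at a time, genes called ran from 105 to 261 in cDC1-like (members 1 throughout), 304 to 417 in cDC2-like (1 to 2), 27 to 78 in classical monocyte-like (0 to 1), 0 to 658 in macrophage-like (0 to 2; the 0 was without the female Csf2+/- library, where 1611 had an unadjusted p under 0.05), 25 to 163 in migratory dendritic-like (0 to 4) and 37 to 69 in non-classical monocyte-like cells (0 throughout), 6 to 390 in cluster 4 (0 to 1) and 0 to 507 in cluster 6 (0 to 1), all by edgeR. Genes whose change differed ran from 63 to 253 for cDC1-like minus cDC2-like, 23 to 304 for cDC1-like minus macrophage-like and 198 to 709 for cDC2-like minus macrophage-like cells, and 7 to 157 for cluster 4 minus cluster 6. The differences ran from -1.92 to -1.68 and from -1.57 to -0.91 for Clec7a in cDC1-like minus cDC2-like and minus macrophage-like cells, and for cDC2-like minus macrophage-like cells from 0.48 to 0.74 for Clec4a1 and 0.68 to 0.84 for Clec4a3. Among alternative levels 30 moved by more than 1 SD and 130 did not, and among thinned shares 75 did and 5 did not.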
